A study of Mus musculus with 2 samples.

Results

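The genes described here are 43 antioxidant and redox genes, taken as a fixed list by gene symbol from the 25556 genes counted in nuclei of the mouse brainstem. The list holds superoxide dismutases and catalase, glutathione peroxidases, peroxiredoxins, thioredoxins and glutaredoxins, the enzymes that make and recycle glutathione, glutathione transferases, heme oxygenases and a quinone reductase, the regulators Nfe2l2 and Keap1, and Oxr1, Enox1 and Enox2. All 43 were counted. In both libraries together 40 of them had at least 200 UMIs (unique molecular identifiers, each marking 1 captured RNA molecule), the minimum used for ratios over all nuclei. Sod3, Gpx8 and Hmox1 stayed below it.

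Nuclei of 1 wildtype (WT) mouse and 1 HET mouse were compared. The HET mouse carried the Scn1a A1783V missense knock-in on 1 allele (Scn1a A1783V/WT, a model of Dravet Syndrome), and the WT was a littermate. Both were untreated females at postnatal day 41 on a C57BL/6J background (C57Bl6 in the labels). The cross was between a male with a floxed Scn1a allele and a Sox2-Cre female, and Sox2-Cre acts in the early embryo, so that recombined alleles are carried throughout the body. Both tissues were thawed in a buffer that held a nitrone antioxidant (HPN-07) and inhibitors of cell death. The WT library held 9259 nuclei with 70301390 UMIs and the HET library 9022 nuclei with 66176778 UMIs, and 23 barcodes occurred in both. Scn1a had 380 counts per 1000000 UMIs (CPM) in WT and 420 in HET, which does not check the genotype, since a missense allele cannot be read from gene counts. With 1 library per genotype no difference here has a replicate check. The intervals below are exact 95% intervals for counting error only, and they do not cover the difference between any 2 mice.

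Superoxide dismutases turn superoxide into hydrogen peroxide, which catalase, glutathione peroxidases and peroxiredoxins then reduce. Glutathione peroxidases draw on glutathione, a tripeptide made by glutamate-cysteine ligase and glutathione synthetase, and peroxiredoxins draw mainly on thioredoxin. Nfe2l2 (also called NRF2) is the transcription factor that switches on many of these genes through the antioxidant response element, and Keap1 holds it in the cytoplasm and marks it for degradation. In the brain, astrocytes are known to supply neurons with precursors of glutathione.

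The antioxidant response element is shown because it is the sequence through which this set is best known to be regulated. Its core letters TGACNNNGC were searched on both strands (GCNNNGTCA on the other strand) from 250 bases before to 50 bases after each RefSeq transcript start on GRCm38.p6. Of the 43 genes, 36 had an entry, and 8 of the 36 (22.2%) held the core, against 14.0% of the 27025 genes in the same table. Counted by promoter, 8 of the 49 promoters of these 36 genes held it, against 12.4% of all 32851 promoters. The 8 windows read as follows, 5′ to 3′ on the strand of the gene, with the core in capitals.
Nfe2l2, chr2:75704885-75704913, minus strand: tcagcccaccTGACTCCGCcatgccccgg
Srxn1, chr2:152105542-152105570, plus strand: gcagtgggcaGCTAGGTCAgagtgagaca
Gstm5, chr3:107895802-107895830, plus strand: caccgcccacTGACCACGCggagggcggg
Gclm, chr3:122245413-122245441, plus strand: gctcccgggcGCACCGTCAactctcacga
Prdx1, chr4:116685456-116685484, plus strand: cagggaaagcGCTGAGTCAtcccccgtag
Mgst1, chr6:138140461-138140489, plus strand: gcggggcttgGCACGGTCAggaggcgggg
Txnrd1, chr10:82859104-82859132, plus strand: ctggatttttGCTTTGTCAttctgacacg
Sod1, chr16:90220696-90220724, plus strand: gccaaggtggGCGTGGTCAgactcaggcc
The core began 240 bases before the transcript start in Nfe2l2, 134 in Gclm, 133 in Prdx1, 92 in Txnrd1, 56 in Mgst1 and Sod1 and 42 in Gstm5, and 28 bases after it in Srxn1. Only Nfe2l2 and Gstm5 held it as TGACNNNGC on the strand of the gene. The 8 genes had a median log2 ratio of HET to WT of −0.53, with 7 below 0. The 27 genes that had an entry, no core and enough UMIs had a median of −0.35, with 23 below 0. Among all 16347 genes with at least 200 UMIs the median was −0.10, and 61.7% were below 0. Ratios of all genes with the core were not computed, and the part of gene length in this difference was not tested.

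The upstream sequence of Gss, which encodes glutathione synthetase, is shown because Gss had the highest HET to WT ratio of the list. The 250 bases before its start (chr2:155592811-155593060, GRCm38.p6, minus strand) carried no core, and CG pairs are in capitals.
Gss: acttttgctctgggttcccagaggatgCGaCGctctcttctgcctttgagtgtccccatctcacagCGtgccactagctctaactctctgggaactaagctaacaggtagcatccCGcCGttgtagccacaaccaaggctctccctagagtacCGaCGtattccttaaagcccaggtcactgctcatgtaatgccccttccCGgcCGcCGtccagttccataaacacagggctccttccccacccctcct
This stretch had 10 CG pairs and a GC content of 56%, where the median over all promoters in the table was 6 CG pairs in 250 bases.

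Over all nuclei, most of the antioxidant and redox genes had lower levels in HET. Of the 40 with at least 200 UMIs, 33 had a log2 ratio of HET to WT below 0 and 7 above 0, where 61.7% of the 16347 genes at the same minimum were below 0. The median log2 ratio was −0.35 for the 40 genes and −0.10 for all 16347. Past 1.5-fold, 11 of the 40 were lower in HET (Gpx1, Prdx5, Gsta4, Glrx5, Gpx4, Gpx7, Prdx1, Txn1, Nqo1, Prdx2 and Nfe2l2), where 12.7% of all genes were. Gss alone of the 40 was higher past 1.5-fold, where 6.29% of all genes were. The other 28 lay within 1.5-fold. The plot of the ratios by class shows how the classes were placed. Less RNA per nucleus and fewer nuclei of a type cannot be told apart in sums over all nuclei. With every cluster given the same weight in both libraries, 12 genes were lower and 1 was higher.

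**Figure D1:**
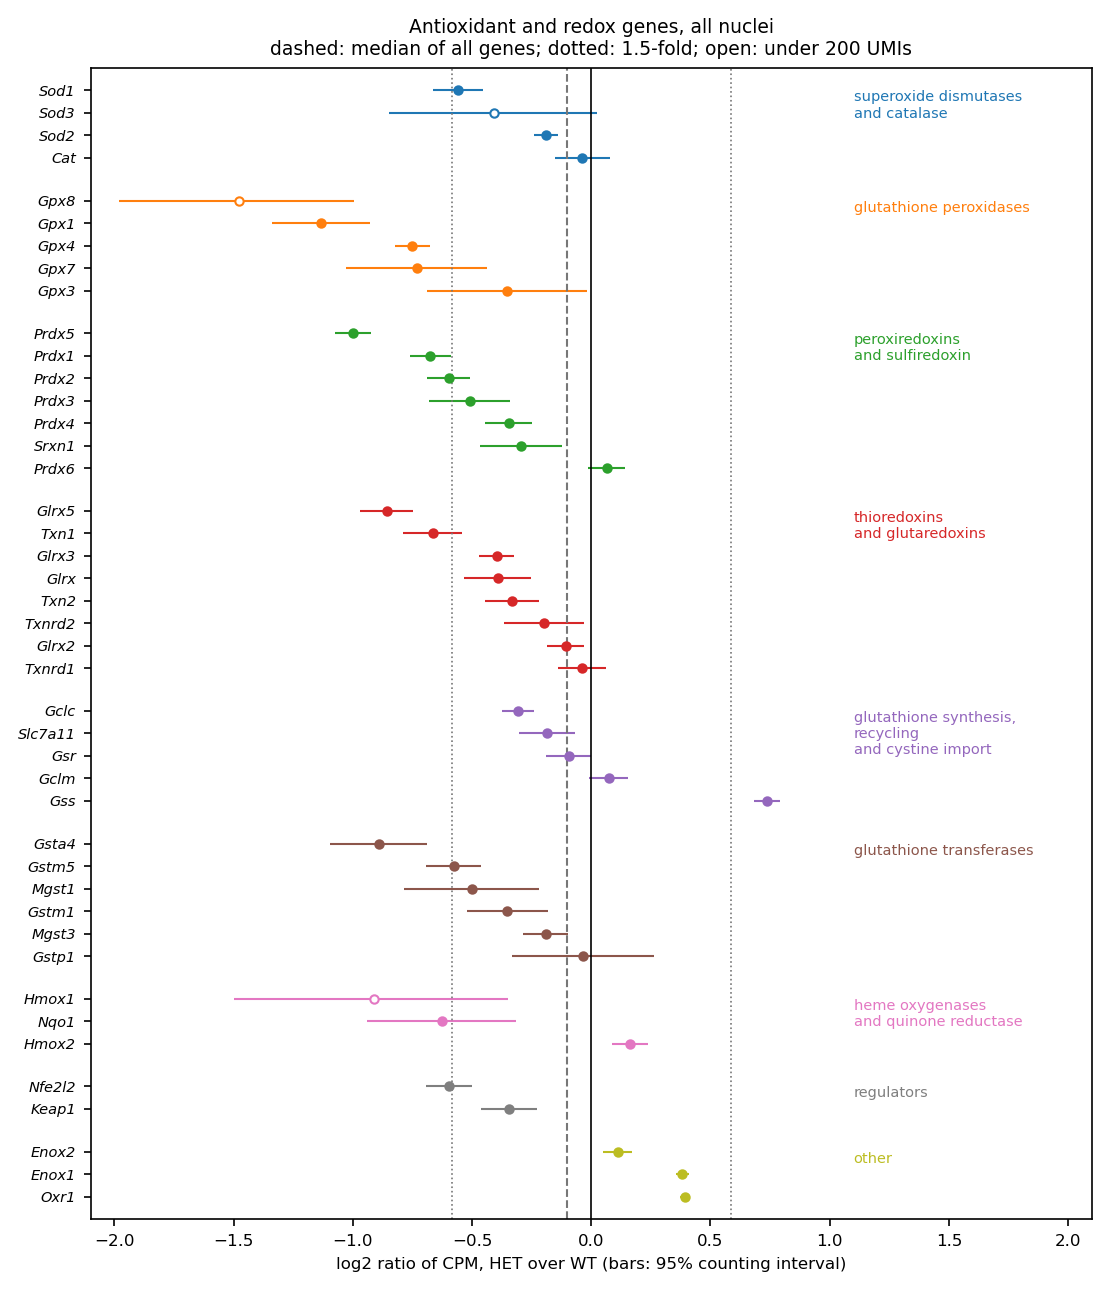
The log2 ratio of HET to WT CPM over all nuclei (x axis) is plotted for each of the 43 genes (y axis), grouped and coloured by class, with 95% counting intervals as bars, open points for the 3 genes under 200 UMIs, a dashed line at the median of all genes and dotted lines at 1.5-fold. Of the 40 filled points, 33 lie left of 0, and Gss lies right of the upper 1.5-fold line.

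Several quantities of the whole libraries moved with these ratios, and their part in the result was not tested. The median share of ribosomal protein UMIs per nucleus was 0.696% in WT and 0.407% in HET, and the median mitochondrial share 0.343% and 0.458%. The 3 choroid plexus markers (Ttr, Kl and Folr1) summed to 401 CPM in WT and 44.7 in HET over all nuclei. Their sum was lower in HET in neurons, oligodendrocytes, astrocytes and the fibro cluster alike, from 238 to 740 CPM in WT against 30.6 to 127 in HET. Ttr made up most of the sum in each of these, such as 713 of 717 CPM in oligodendrocytes in WT. The 4 endothelial markers summed to 102 CPM in WT and 36.0 in HET. Their sum was also lower in HET within neurons (21.6 and 10.7), oligodendrocytes (57.3 and 23.1) and astrocytes (50.1 and 23.4). Of the endothelial markers, Flt1 went the other way in astrocytes, at 5.68 CPM in WT and 11.1 in HET. The 5 oligodendrocyte markers summed to 1499 and 2215 over all nuclei. None of these markers was at 0 over all nuclei. The clusters carried their own markers: the 5 astrocyte markers summed to 3478 CPM in WT and 4535 in HET in astrocytes, against 76.4 and 72.3 in neurons.

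The ratio also moved with the length of the gene body. Among all genes, the shortest of 4 equal classes (up to 10240 bp) had a median log2 ratio of −0.36 and the longest class (from 62542 bp) of 0.07. The 13 antioxidant and redox genes in the shortest class had a median of −0.58, with 6 lower past 1.5-fold, where 30.4% of all genes in that class were. In the next classes, 11 genes had a median of −0.39 beside −0.19 for all genes, and 11 had a median of −0.19 beside −0.09. The 5 in the longest class had a median of 0.11 beside 0.07. Relative to the median of their own length class, 27 of the 40 genes were below and 13 above. The plot of ratio against length shows the 4 classes.

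**Figure D2:**
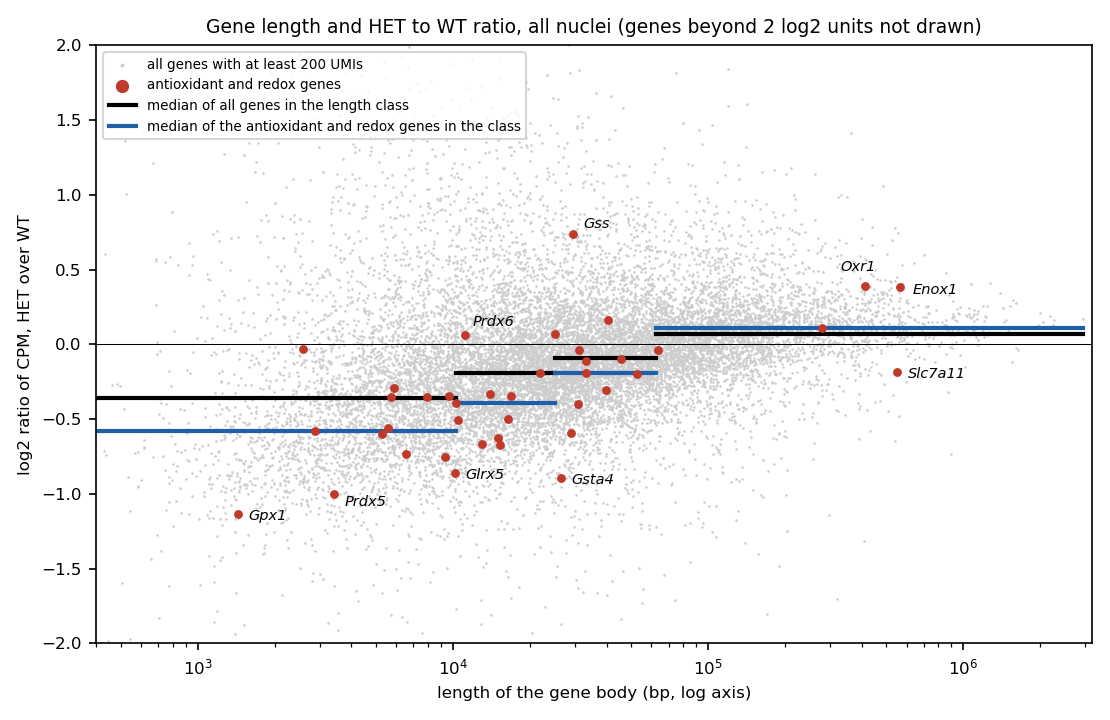
Length of the gene body (x axis, log scale, bp) against the log2 ratio of HET to WT CPM (y axis), with all genes in grey, the 40 antioxidant and redox genes in red, and the medians of the 4 length classes as bars, black for all genes and blue for the antioxidant and redox genes. The blue bar lies below the black one in the 3 shorter classes, at −0.58 against −0.36 in the shortest, and slightly above it in the longest.

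Among the superoxide dismutases and catalase, none of the 3 genes with enough UMIs passed 1.5-fold. Sod1, the copper and zinc enzyme of the cytosol, had 1891 UMIs (26.9 CPM) in WT and 1208 (18.3 CPM) in HET, giving a log2 ratio of −0.56 (95% interval −0.66 to −0.45). Sod2, the manganese enzyme of mitochondria, had 97.0 CPM in WT and 85.0 in HET. Cat, which encodes catalase of the peroxisome, had 18.6 and 18.1 CPM, a log2 ratio of −0.04 whose interval (−0.15 to 0.08) held 0. So Sod1 was lower in HET beyond counting error and Cat was not distinguishable. Sod3, the secreted enzyme, had 110 UMIs in WT and 78 in HET, and its interval also held 0.

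The glutathione peroxidases had the lowest median of the 9 classes, −0.74, and 3 of the 4 with enough UMIs were lower past 1.5-fold. All 4 lay in the shortest length class, where 30.4% of all genes were lower past 1.5-fold. Gpx1, the common peroxidase of the cytosol and mitochondria, had 650 UMIs (9.25 CPM) in WT and 279 (4.22 CPM) in HET, giving a log2 ratio of −1.13 (−1.34 to −0.93). Gpx4, which reduces peroxides of membrane lipids and holds back ferroptosis, had 4256 UMIs (60.5 CPM) in WT and 2381 (36.0 CPM) in HET, giving a log2 ratio of −0.75 (−0.82 to −0.68). Gpx7, a peroxidase of the endoplasmic reticulum, had 268 and 152 UMIs, a log2 ratio of −0.73 (−1.03 to −0.44). These 3 genes were short, and each was lower than the median of its length class, −0.36. Gpx3, the secreted plasma enzyme, had 179 and 132 UMIs and a log2 ratio of −0.35. Gpx8, a membrane protein of the endoplasmic reticulum, had 142 UMIs in WT and 48 in HET.

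Of the peroxiredoxins and sulfiredoxin, 3 of 7 were lower past 1.5-fold, where 12.7% of all genes were, and Prdx6 stood apart. Of the 3, Prdx5 and Prdx2 lay in the shortest length class, where 30.4% of all genes were lower past 1.5-fold. Prdx1 lay in the next class, where 11.7% were. Prdx5, found in mitochondria, peroxisomes and the cytosol, had 4382 UMIs (62.3 CPM) in WT and 2062 (31.2 CPM) in HET, where the interval of its log2 ratio ran from −1.08 to −0.92. Prdx1, a peroxiredoxin of the cytosol, had 42.5 and 26.6 CPM, a log2 ratio of −0.68 (−0.76 to −0.59). Prdx2, the peroxiredoxin best known from red cells and neurons, had 38.6 and 25.5 CPM, a log2 ratio of −0.60 (−0.69 to −0.51). The 3 were thus lower in HET by more than their counting error. Mitochondrial Prdx3 had a log2 ratio of −0.51, Prdx4 of the endoplasmic reticulum of −0.35, and Srxn1, which restores over-oxidized peroxiredoxins, of −0.29. Prdx6, which uses glutathione in place of thioredoxin, had 38.8 CPM in WT and 40.6 in HET, a log2 ratio of 0.07 (−0.01 to 0.14).

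All 8 thioredoxin and glutaredoxin genes had a log2 ratio below 0, where 61.7% of all genes did. Of the 8, 2 were lower past 1.5-fold, where 12.7% of all genes were. Glrx5, a mitochondrial glutaredoxin of iron and sulfur cluster assembly, had 1957 UMIs (27.8 CPM) in WT and 1016 (15.4 CPM) in HET, giving a log2 ratio of −0.86 (−0.97 to −0.75). Txn1, the thioredoxin of the cytosol, had 20.4 and 12.8 CPM, a log2 ratio of −0.66 (−0.79 to −0.54). The reductases that recharge the thioredoxins were closer to 0, at −0.04 (−0.14 to 0.06) for Txnrd1 and −0.20 for mitochondrial Txnrd2. Between these lay Glrx3 at −0.40, Glrx at −0.39, Txn2 at −0.33 and Glrx2 at −0.11. The length classes differed as well. Their medians over all genes were 0.07 for the class of Txnrd1, −0.09 for Txnrd2, −0.19 for Txn1 and −0.36 for Glrx5.

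In glutathione synthesis the steps differed in direction. Gclc, the catalytic subunit of glutamate-cysteine ligase, had 57.7 CPM in WT and 46.6 in HET, a log2 ratio of −0.31 (−0.37 to −0.24). Gclm, its modifier subunit, had 34.7 and 36.5 CPM, a log2 ratio of 0.07 (−0.01 to 0.15). Gss, which adds glycine in the second step, had 4456 UMIs (63.4 CPM, 61.5 to 65.3) in WT and 6990 (106 CPM, 103 to 108) in HET, a 1.67-fold higher level and a log2 ratio of 0.74 (0.68 to 0.79). Of the 4024 genes in its length class, 3.18% had a higher ratio. Gsr, which recycles oxidized glutathione, had 28.2 and 26.4 CPM, a log2 ratio of −0.09. Slc7a11, the cystine importer xCT, had 18.4 and 16.2 CPM, a log2 ratio of −0.19 (−0.30 to −0.07).

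Glutathione transferases couple glutathione to reactive compounds, and 1 of 6 was lower past 1.5-fold, where 12.7% of all genes were. Gsta4, which clears the lipid peroxidation product 4-hydroxynonenal, had 603 UMIs (8.58 CPM) in WT and 306 (4.62 CPM) in HET, giving a log2 ratio of −0.89 (−1.09 to −0.69), and 2.11% of the genes in its length class had a lower ratio. With equal cluster weights the log2 ratio of Gsta4 was −0.66. Its level was highest in the endo cluster, which had 222 nuclei in WT and 122 in HET. Gstm5 had a log2 ratio of −0.58, just inside the 1.5-fold limit of 0.585, Mgst1 of −0.50, Gstm1 of −0.35 and Mgst3 of −0.19. Gstp1 had 199 UMIs in WT and 183 in HET, and its interval (−0.33 to 0.26) held 0. Gstm1, Gstm5 and Gstp1 belong to families with closely similar copies, so that their counts are uncertain where reads fit several genes.

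Hmox1, the inducible enzyme of heme breakdown, had 80 UMIs in WT and 40 in HET, under the minimum. Hmox2, the constitutive one, had 2746 UMIs (39.1 CPM) in WT and 2891 (43.7 CPM) in HET, giving a log2 ratio of 0.16 (0.09 to 0.24). With equal cluster weights the log2 ratio of Hmox2 was 0.08. It was above 0 in 8 of the 11 clusters with at least 20 of its UMIs, with the interval above 0 in 1. Nqo1, a quinone reductase and a standard readout of NRF2, had 228 and 139 UMIs, a log2 ratio of −0.63 (−0.94 to −0.32). Its place past 1.5-fold was lost in 4 of the 7 alternatives, with log2 ratios of −0.38 with equal cluster weights, −0.50 without the clusters that 1 library dominated, −0.52 with the median of all genes set to 0 and −0.54 without the highest doublet scores, and the mean over nuclei gave −1.04. Nfe2l2 itself had 2260 UMIs (32.1 CPM) in WT and 1408 (21.3 CPM) in HET, giving a log2 ratio of −0.60 (−0.69 to −0.50). Keap1 had 19.7 and 15.5 CPM, a log2 ratio of −0.34 (−0.46 to −0.23). Over all nuclei both the factor and its repressor were thus lower in HET. Keap1 lay close to the median of all genes in its length class, −0.36, and Nfe2l2 lay below that of its own class, −0.09. Keap1 was above 0 in 3 of the 10 clusters with at least 20 of its UMIs.

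Over all nuclei Oxr1, Enox1 and Enox2 were each higher in HET, within 1.5-fold. Oxr1, an oxidation resistance gene that protects neurons from oxidative stress, had 35327 UMIs (503 CPM) in WT and 43687 (660 CPM) in HET, giving a log2 ratio of 0.39 (0.37 to 0.41). Enox1, an NADH oxidase and disulfide-thiol exchanger of the cell surface, had 20572 UMIs (293 CPM) and 25245 (381 CPM), a log2 ratio of 0.38 (0.36 to 0.41). Its relative Enox2 had 58.8 and 63.5 CPM, a log2 ratio of 0.11, near the median of its length class, 0.07. By cluster Enox2 was above 0 in 5 of 12 and below 0 in 7, with 1 interval wholly on each side. All 3 lay in the longest class of genes, where 10.4% of genes had a higher ratio than Oxr1 and 11.1% a higher ratio than Enox1.

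In the 9 neuronal clusters together, with 6118 WT and 5393 HET nuclei, 33 of the 43 genes were below 0 and 10 above, with a median log2 ratio of −0.32, where 57.5% of all genes with at least 20 UMIs were below 0 and their median was −0.08. In oligodendrocytes 35 of 41 were below 0 with a median of −0.47, where 58.8% of all genes were below 0 with a median of −0.10. In astrocytes 30 of 40 were below 0 with a median of −0.42, where 60.0% of all genes were below 0 with a median of −0.11. The interval lay wholly below 0 for 26 of the genes in neurons, 22 in oligodendrocytes and 17 in astrocytes, where it did for 37.2%, 25.1% and 18.3% of all genes with at least 20 UMIs. It lay wholly above 0 for 4, 4 and 3 of the genes, where it did for 24.5%, 15.6% and 10.4% of all genes. Of the nuclei in the micro cluster, only 45 in WT and 70 in HET also carried a microglial label, and in these 6 genes had 20 UMIs, too few to describe the list. Some single clusters lay nearer to all genes. In neuron.3, 19 of 32 were below 0 with a median of −0.10, where 55.8% of all genes were below 0. In the whole micro cluster, 19 of 31 were below 0 with a median of −0.14, where 56.3% of all genes were, and in the fibro cluster 15 of 26 with a median of −0.05, where 53.8% were.

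A total of 12 of the 16 deposited clusters had at least 30 nuclei in each library. Gpx4 and Prdx2 were lower in HET in 12 of 12, Txn1 in 11 of 11 and Glrx5 in 10 of 10 clusters with at least 20 of their UMIs. Of the 40 genes with enough UMIs in at least 3 clusters, 10 were below 0 in every one, where 13.9% of all such genes were, and Gpx7 and Mgst1 rested on 3 clusters and Gpx8 on 4. Only Gss of the 40 was above 0 in every one, where 6.89% of all such genes were. Of the 15 genes with enough UMIs in all 12 clusters, 2 were below 0 throughout (9.51% of all such genes) and 1, Gss, above 0 throughout (3.63%). The interval of Gss lay above 0 in 9 of the 12. Oxr1 and Enox1 were each above 0 in 11 of 12, with the interval above 0 in 9. The exceptions were neuron.7 for Oxr1, at 86.7 CPM in WT and 82.5 in HET, and neuron.5 for Enox1, at 687 and 610 CPM, where both intervals of the ratio held 0. The map of ratios by cluster shows each of these as a row.

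**Figure D3:**
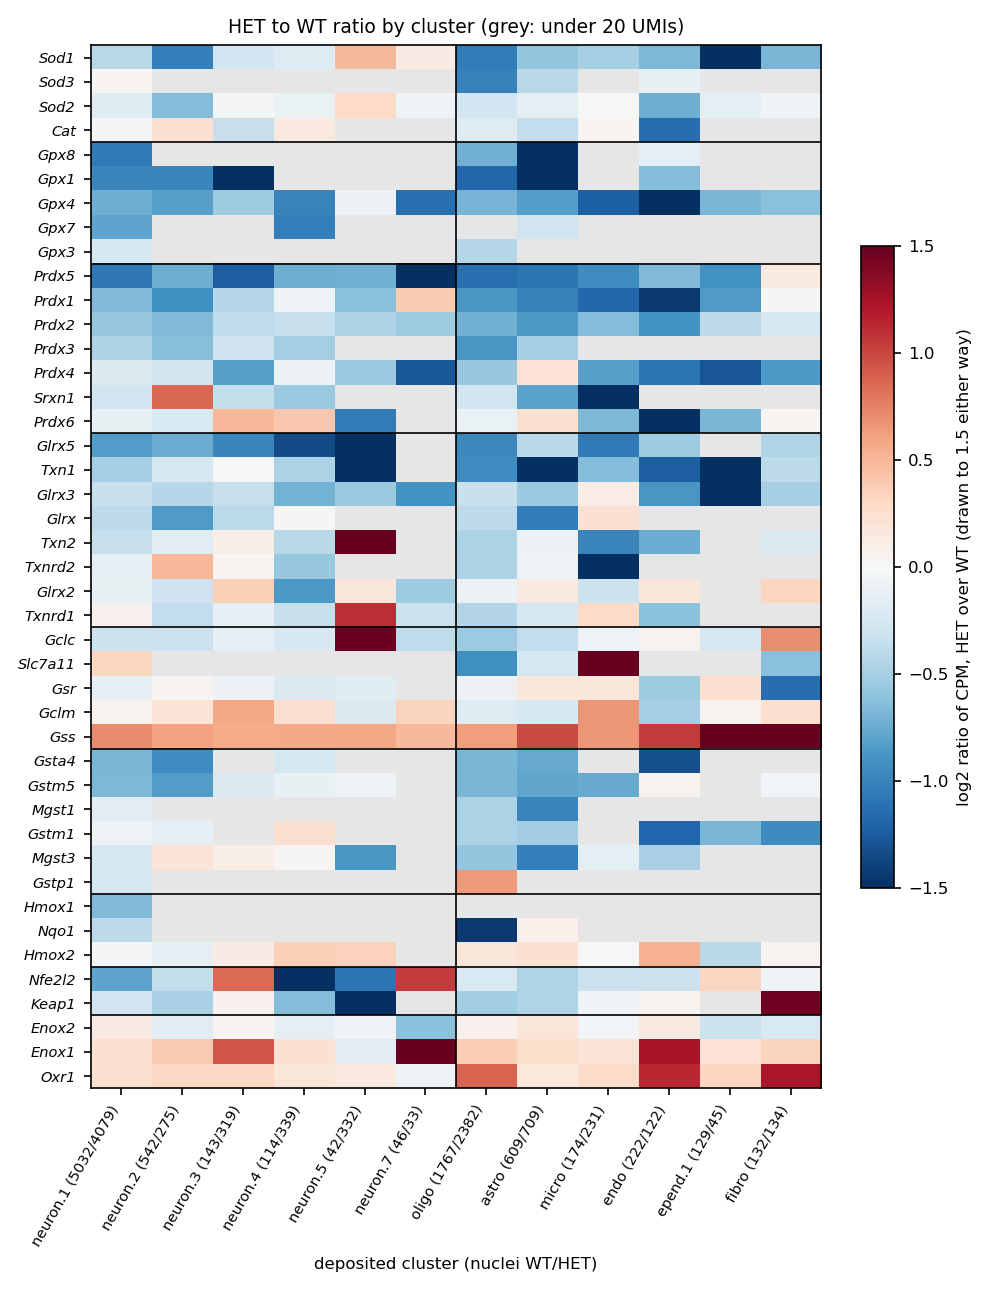
Map of the log2 ratio of HET to WT CPM for the 43 genes (rows, grouped by class) in the 12 clusters with at least 30 nuclei per library (columns, with nuclei in WT and HET), red for higher and blue for lower in HET, and grey for under 20 UMIs. The row of Gss is red in all 12 columns, and the rows of Gpx4 and Prdx2 are blue in all 12.

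Gss in neurons had 65.4 CPM in WT and 109 in HET, a log2 ratio of 0.73 (0.67 to 0.79). In oligodendrocytes it had 63.3 and 97.9 CPM, a log2 ratio of 0.63 (0.45 to 0.81), and in astrocytes 37.8 and 74.9 CPM, a log2 ratio of 0.99 (0.60 to 1.38). The intervals of the 3 types overlapped. Oxr1 differed more between types. It had 538 CPM in WT and 699 in HET in neurons (log2 ratio 0.38, 0.36 to 0.40), 280 and 514 CPM in oligodendrocytes (0.88, 0.79 to 0.96), and 207 and 231 CPM in astrocytes (0.15, −0.03 to 0.34). The interval in oligodendrocytes lay above those of the other two types. In the same oligodendrocytes the 5 neuronal markers summed to 1358 CPM in WT and 1813 in HET (13787 and 13561 in neurons). Meg3 made up most of both sums, at 1018 and 1407 CPM in oligodendrocytes and 11644 and 11086 in neurons. Rbfox3, Snap25 and Syt1 were higher in HET in both types, and Nefl was lower in both (107 and 87.4 CPM in oligodendrocytes). The part of these markers in the Oxr1 ratio was not tested. Enox1 had 284 and 358 CPM in neurons (log2 ratio 0.33), 496 and 640 CPM in oligodendrocytes (0.37) and 112 and 134 CPM in astrocytes (0.26), with overlapping intervals.

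The genes lower in HET over all nuclei also differed in size between types. Nfe2l2 had 29.3 CPM in WT and 17.3 in HET in neurons, a log2 ratio of −0.76 (−0.88 to −0.64), and 37.5 and 32.1 CPM in oligodendrocytes, a log2 ratio of −0.22 (−0.49 to 0.04). Within neurons it was at 82.5 CPM in WT and 24.5 in HET in neuron.4, with 114 and 339 nuclei, and at 30.1 and 17.4 in neuron.1, the main cluster. Over the 12 clusters its log2 ratio ran from −1.75 in neuron.4 to 1.05 in neuron.7, with 9 below 0 and 3 above, and its interval lay below 0 in 3. Sod1 had 24.3 and 17.7 CPM in neurons (log2 ratio −0.45, −0.57 to −0.33) but 33.5 and 16.2 in oligodendrocytes (−1.05, −1.38 to −0.72). Txn1 had 17.8 and 12.5 CPM in neurons (−0.51, −0.65 to −0.37) but 31.7 and 11.1 in astrocytes (−1.51, −2.19 to −0.86). For Prdx5 and Gpx4 the intervals of the 3 types overlapped, with log2 ratios of −0.99, −1.13 and −1.08 for Prdx5 and −0.77, −0.70 and −0.83 for Gpx4 in neurons, oligodendrocytes and astrocytes.

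Prdx6 and Slc7a11 were marked by where they were found. In astrocytes Prdx6 had 284 CPM in WT (262 to 307) and 334 in HET (312 to 357), against 28.9 and 27.4 in neurons and 37.1 and 34.6 in oligodendrocytes. Its log2 ratio was 0.24 (0.08 to 0.39) in astrocytes, above the interval in neurons (−0.18 to 0.02). With every nucleus thinned to 1000 UMIs it was seen in 25.5% of astrocytes in WT and 27.5% in HET, against 3.38% and 2.91% of neurons. Without thinning these shares were 57.6% and 62.1% of astrocytes, with median depths of 2963 and 3318 UMIs, and 22.8% and 22.3% of neurons, with 7729 and 8390. The same astrocytes had less Prdx1 in HET, at 130 and 64.2 CPM.

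Slc7a11 was at 2.56 CPM in WT and 3.13 in HET in neurons, 212 and 177 in astrocytes, and 1369 and 886 in the cluster named fibro, a log2 ratio there of −0.63 (−0.82 to −0.44). That cluster was mixed by the second deposited label, with 23 nuclei labelled as fibroblasts in WT and 14 in HET. By that label the fibroblasts had 1130 and 481 CPM of Slc7a11, the astrocytes of the cluster 1889 and 1270, and its neurons 742 and 631. So the high level was not limited to the nuclei labelled as fibroblasts. Summed over the cluster, the 4 fibroblast markers had 716 CPM in WT and 943 in HET, against 6.14 and 5.95 in neurons. At 1000 UMIs per nucleus Slc7a11 was seen in 45.8% of the nuclei of the cluster in WT and 29.8% in HET, against 0.315% and 0.343% of neurons, and without thinning in 59.1% and 40.3%, against 1.98% and 2.69%. The median depth of the cluster was 2656 UMIs in WT and 2627 in HET. In oligodendrocytes it had 52 UMIs in WT and 37 in HET.

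**Figure D4:**
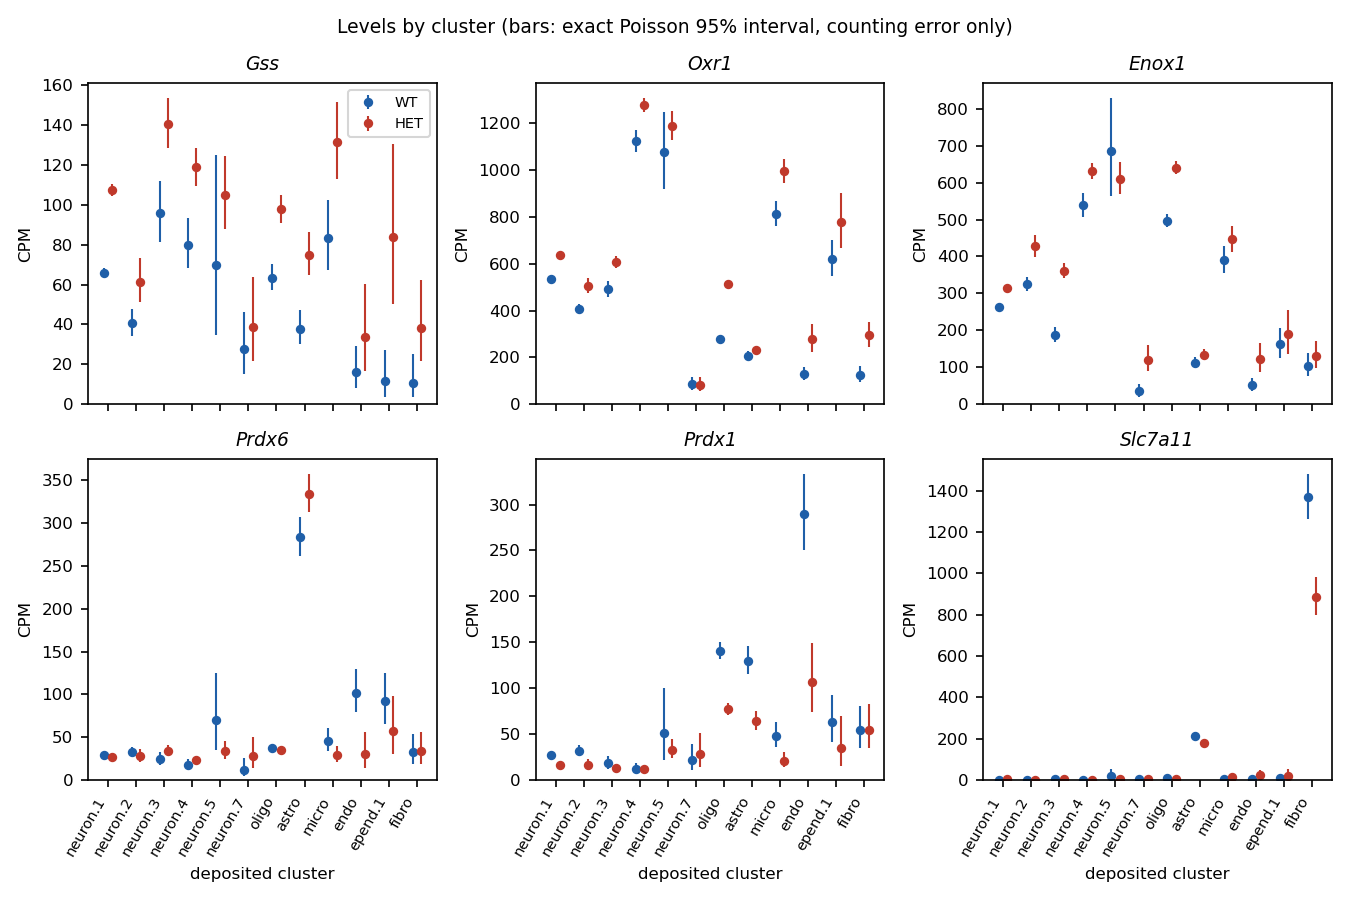
CPM (y axis, from 0) of Gss, Oxr1, Enox1, Prdx6, Prdx1 and Slc7a11 in the 12 clusters (x axis) for WT (blue) and HET (red), with exact Poisson 95% intervals as bars. HET lies above WT in every cluster for Gss, Prdx6 peaks in astrocytes at 284 and 334 CPM, and Slc7a11 peaks in the fibro cluster at 1369 and 886 CPM.

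The endo cluster held the highest level for 19 of the 43 in WT and for 21 in HET, 16 of them in both. Of the 40 with at least 200 UMIs it was the top cluster for 18 in WT, where it was for 19.6% of all genes at that minimum, and for 15 in both libraries, where it was for 12.8%. Gsta4 had 183 CPM there in WT and 73.4 in HET, against 6.06 and 3.79 in neurons. Gpx1 had 135 and 85.6 CPM, against 6.97 and 3.40 in neurons, and Prdx1 had 290 and 107, against 26.3 and 16.7. This cluster had 222 nuclei in WT and 122 in HET, of which 163 and 46 carried the endothelial label as well. In those 29 genes had 20 UMIs, 20 below 0 and 9 above, with a median log2 ratio of −0.43, where 53.3% of all genes were below 0 with a median of −0.08. The interval lay wholly below 0 for 3 of the 29 and above 0 for 1. The same share over all genes was not computed for these nuclei, so these counts cannot be set against it.

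Gss lies at chr2:155563181-155592810 on the minus strand (GENCODE vM21 on GRCm38), and its 3′ part shares 22544 bp with Acss2 (acetyl-CoA synthetase) on the opposite strand. Of the 10 other genes within 200 kb with at least 200 UMIs, Acss2 (7776 UMIs in WT, 11257 in HET, log2 ratio 0.62), Acss2os (749 and 1142, 0.70) and Myh7b (267 and 374, 0.57) were higher in HET. Gssos1, which covers the start of Gss on the opposite strand, was lower, with 487 and 268 UMIs and a log2 ratio of −0.77. The next genes outward, Ggt7 at −0.23 and Trpc4ap at −0.02, were not higher. Acss2 was higher with Gss in neurons (0.56), oligodendrocytes (0.82) and astrocytes (0.49). Myh7b was higher in the neuronal clusters together (0.58). In single clusters its interval held 0, with log2 ratios of 0.23 in neuron.1, 0.86 in neuron.2, −0.17 in neuron.3 and 0.09 in neuron.4. The part of cluster shares in its ratio was not tested. The strand setting of the counting was not given in the sources used here, and reads of overlapping genes on opposite strands cannot be told apart without it. The same holds for opposite-strand genes inside Oxr1 (Gm26854, 3863 and 6007 UMIs, log2 ratio 0.72) and Enox1 (Gm6994, 3673 and 5164 UMIs, 0.58), and for Junb (1323 and 379 UMIs, −1.72), which overlaps Prdx2 by 351 bp.

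**Figure D5:**
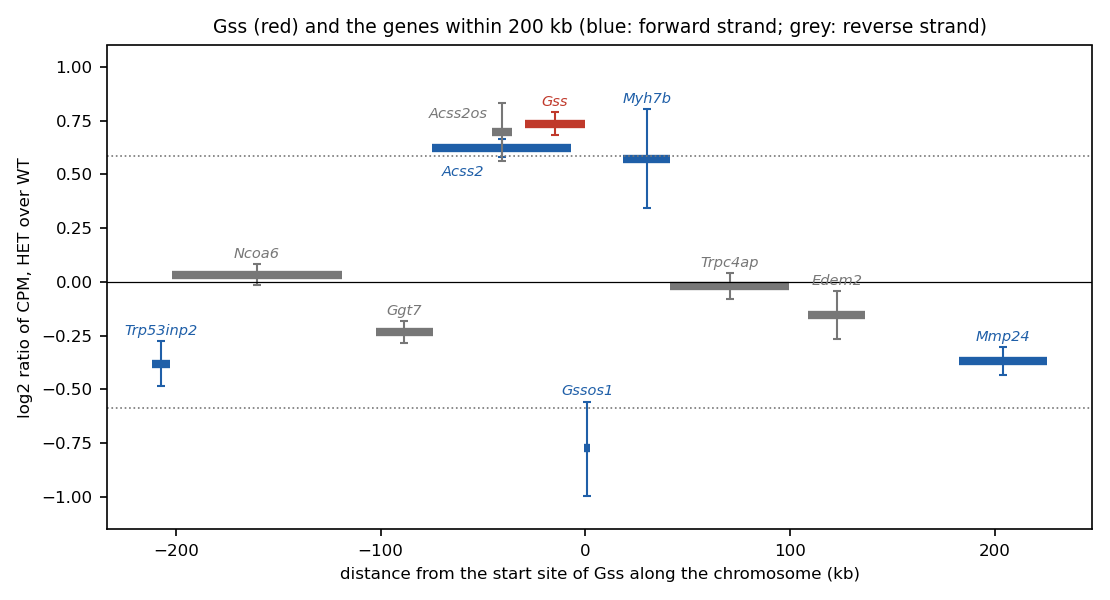
The log2 ratio of HET to WT CPM over all nuclei (y axis) for Gss and the 10 genes within 200 kb, drawn as bars over their position relative to the start site of Gss (x axis, kb), with 95% counting intervals as thin lines and 1.5-fold as dotted lines. Gss, Acss2, Acss2os and Myh7b lie between 0.57 and 0.74, Gssos1 lies at −0.77, and the genes on either side lie near or below 0.

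The other genes of the redox network were counted from a longer list of 106 genes for NADPH supply, selenoproteins, methionine sulfoxide reductases, further transferases, iron storage and NADPH oxidases. Of these 103 were in the table and 87 had at least 200 UMIs. Below 0 were 71 and above 0 were 16, with a median log2 ratio of −0.24, where 61.7% of all genes were below 0 with a median of −0.10. Past 1.5-fold 14 of the 87 were lower and 2 higher, beside the 12.7% and 6.29% of all genes given above. The 3 lowest were Cyba, the membrane subunit of NADPH oxidases (358 UMIs in WT and 112 in HET, log2 ratio −1.59), Ftl1, the ferritin light chain (3455 and 1680, −0.95), and Sesn2, a stress-induced sestrin (272 and 138, −0.89). Among the highest were Msra, which repairs oxidized methionine (4444 and 6326, 0.60), and Xdh, xanthine dehydrogenase (107 and 137, 0.44).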

How the data were processed

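Single-nucleus RNA-seq of mouse brainstem was taken from 1 WT and 1 HET library. The authors prepared 10x Chromium 3′ v3.1 libraries, aligned them with Cell Ranger (version not given in the sources used here) to its default mm10 reference, and then used Seurat to filter (version 4.1 in the submitters' processing notes). The authors deposited raw UMI counts per gene and nucleus, without normalization. The authors also deposited the percent of mitochondrial and ribosomal protein UMIs, a doublet score from a caller that is not named, the cluster of each nucleus and a second cell type label. Nuclei called doublets had been removed before deposit. Gstp1 is among the genes the methods list for removal but is present in the counts.

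UMIs were summed per library over all nuclei or a cluster and scaled to 1000000 (CPM). Ratios carry exact conditional binomial 95% intervals, levels exact Poisson intervals and shares of nuclei Clopper-Pearson intervals, all for counting error only. PCR copies were collapsed by UMI. A ratio was counted as lower or higher past 1.5-fold (0.585 on the log2 scale). Minimums were 200 UMIs over all nuclei, and 20 UMIs and 30 nuclei per library in a cluster, over both libraries together for UMIs. No test was run. Thinned shares are expected shares at 1000 UMIs per nucleus. WT nuclei had a median of 5456 UMIs and HET nuclei 5646. Gene positions and lengths came from GENCODE vM21 (1 position for 24908 genes), and sequences from RefSeq on GRCm38.p6.

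The genes, the lists and the comparisons were chosen with earlier results of these data known. Genes with values in full were Oxr1 and Enox1, each gene past 1.5-fold, and the highest and lowest of each class. A few others, such as Gclm, Hmox2 and the genes around Gss, were named after their values were seen. For the longer redox list the rule names the 3 highest and 3 lowest ratios, and 1 of these genes is not reported here. The alternatives were other cluster weights, scalings, totals, sets of nuclei, averages, UMI minimums and folds. The ratios and intervals were tested on simulated data. Intervals were computed with scipy 1.17.1, tables with pandas 2.3.3 on Python 3.11.15, sums with numpy 2.4.6 and plots with matplotlib 3.10.9.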

Additional observations from a re-analysis of the deposited data

How the results depend on the processing

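The count of 11 genes lower past 1.5-fold became 6 when the median of all genes was set to 0, 7 with a minimum of 1000 UMIs, 22 at a log2 limit of 0.32 and 2 at 2-fold. The count of 1 gene higher became 3 at a log2 limit of 0.32 and 0 at 2-fold. With the median of all genes set to 0, all ratios moved up by 0.10, and 4 of the 40 genes changed sign, none of them past 1.5-fold before. The 5 that then fell within 1.5-fold were Prdx1, Txn1, Nqo1, Prdx2 and Nfe2l2. Prdx2 also did so in nuclei with at least 2000 UMIs (−0.58), Nfe2l2 in the mean over nuclei (−0.44), and Nqo1 in 3 further alternatives. The other alternatives left both counts within 1.5 times, and no gene past 1.5-fold changed sign under any of the 7 alternatives run over single genes. The median log2 ratio stayed between −0.42 and −0.24 over all nuclei, −0.33 and −0.24 in neurons, −0.56 and −0.38 in oligodendrocytes, and −0.46 and −0.30 in astrocytes. No paired analysis was possible because each genotype had 1 library. For the same reason no library could be left out. Depth limits the small clusters most, where many of the 43 genes had under 20 UMIs.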
